A study of Homo sapiens with 6 samples.

Results

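Semaphorins, Slits and netrins are families of guidance cues, first known from axons and also used by growing vessels, and plexins, Robo and UNC5 proteins are their receptors. The genes described here are the rows of a human count table whose symbols begin with SEMA, PLXN, ROBO or SLIT and a number, or are UNC5A to UNC5D or NTN1, NTN3, NTN4 or NTN5, with antisense rows left out. That gave 45 of the 29436 rows: 20 semaphorins, 9 plexins, 4 Robo genes, 3 Slit genes with the intronic transcript SLIT2-IT1, 4 UNC5 genes and 4 netrins.

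The cells were hemogenic endothelium, the vessel-lining cells that give rise to blood, derived from the established human ES cell line H1 on a layer of AGM-S3 stroma cells. The treated group (ALA, 3 libraries) had alpha lipoic acid, an antioxidant and enzyme cofactor, in the inducing medium at 100 µg/ml, and the untreated group (Ctrl, 3 libraries) had the same medium without it. In both groups CD34+CD43-KDR+CD144+ cells were sorted on day 8 and 1000 cells went into each library of amplified polyA cDNA. All libraries come from 1 cell line, and the labels do not say whether replicates were separate cultures, so p-values reflect how far these libraries differ among themselves, possibly for technical reasons alone.

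Guidance cues work as ligand and receptor pairs. Class 3 semaphorins are secreted and bind neuropilins, which pass the signal through plexins, while classes 4 to 6 span the membrane and bind plexins directly. Slit proteins bind Robo receptors and netrins bind DCC, neogenin and UNC5 receptors. In endothelium PLXND1, ROBO4 and UNC5B are the best known of the receptors, and they shape vessel branching and vessel wall stability.

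Library depth ran from 30041494 to 41351951 counts. In 4 libraries (the 3 ALA libraries and Ctrl replicate 1) between 99.13% and 99.34% of nonzero counts were even numbers, against 51.97% to 52.01% in Ctrl replicates 2 and 3. Among the untreated libraries Ctrl replicate 2 stood furthest from the others, with a chi-square of 20.3 to 21.4 per gene against each of them, where the other untreated pair gave 7.98 and ALA pairs gave 3.15 to 5.98 (counting noise alone gives about 1). Counts of the 4 even libraries were halved for this, so ALA and Ctrl pairs differed in depth, which also moves the chi-square. Of the gate genes, CD34 and CDH5 were lower and KDR higher in ALA libraries, and SPN (CD43) was at 0 throughout. Of 15 pan-endothelial markers, ROBO4 among them, all were detected, with summed levels of 10670 to 11090 CPM in ALA and 12410 to 12670 CPM in Ctrl libraries (2 higher and 8 lower). Among markers of cells outside the gate, 8 of 9 tested endoderm and hepatic genes were higher and 0 lower in ALA libraries, with summed levels of 145 to 218 CPM in ALA and 26.2 to 38.6 CPM in Ctrl libraries, and 5 of 6 tested epithelial genes were higher, with sums of 394 to 467 CPM in ALA and 226 to 249 CPM in Ctrl libraries. For 15 mesenchymal markers the sums were 1604 to 2155 CPM in ALA and 2042 to 2683 CPM in Ctrl libraries (2 higher and 6 lower of 14 tested), and for 11 neural markers 186 to 209 CPM in ALA and 262 to 294 CPM in Ctrl libraries (1 higher and 3 lower of 5 tested), with DCX, NEUROG2 and SOX10 at 0 throughout. Megakaryocytic and erythroid markers summed to 25.1 to 34.9 CPM in ALA and 10.9 to 12.1 CPM in Ctrl libraries (4 higher and 1 lower of 6 tested), with PPBP, HBG1 and HBE1 at 0 throughout. Of the 4 higher, GYPB (0.349 to 0.633 CPM in ALA and 0 CPM in Ctrl libraries) passed the filter on low counts through the ALA libraries alone. The place of GYPB among them is no result. Blood and myeloid markers summed to 247 to 275 CPM in ALA and 302 to 322 CPM in Ctrl libraries (0 higher and 2 lower of 5 tested), with PTPRC, SPI1 and CD68 at 0 throughout. The epithelial marker CDH1 ranged from 9.50 to 12.1 CPM in ALA and from 0 to 0.0332 CPM in Ctrl libraries, and the endoderm marker FOXA2 from 1.99 to 3.74 CPM in ALA and from 0 to 0.246 CPM in Ctrl libraries. CDH1 and FOXA2 passed the filter on low counts through the ALA libraries alone, so their place among the higher genes is no result. The part of these other cell types in the differences below was not tested, and in sorted bulk samples fewer cells of a type cannot be told apart from less RNA per cell.

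The guidance genes leaned towards lower levels in ALA libraries. Counts scaled to library size after TMM normalisation (CPM) are given as levels, and counts were compared with edgeR's quasi-likelihood test over 13780 genes, and a gene was called at a Benjamini-Hochberg adjusted p under 0.05. Of the 45 genes 38 passed the filter on low counts, of which 6 were called higher, 17 lower and 15 neither. Over all tested genes 24.2% were called higher, 23.3% lower and 47.4% in either direction, so that 15.8% of the guidance genes higher and 44.7% lower stood on opposite sides of those shares. Their median log2 fold change was -0.27, beside -0.01 for all tested genes. The levels of the 2 groups did not overlap for 25 of the 38, where 59.1% of all tested genes do not overlap. The 2 shares are near each other, so this count is no result about the guidance genes. In the 4 libraries of even counts, with Ctrl replicate 1 as the sole control and assumed to vary like the others, 5 guidance genes were called higher and 18 lower, and without Ctrl replicate 2 there were 6 and 18. No called gene turned its direction under any of 16 other settings, and 18 of the 23 kept their call under all of them. SLIT2-IT1 passed the filter through the untreated libraries alone, so its place among the lower genes is no result. Without it 37 genes were tested, of which 6 (16.2%) were called higher and 16 (43.2%) lower. The median log2 fold change of these 37 was -0.26, and the groups did not overlap for 24 of them, again near the share over all genes. SEMA4A, 1 of the 6 higher, was tested mainly through the ALA libraries, so its place among them is no result.

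**Figure D1:**
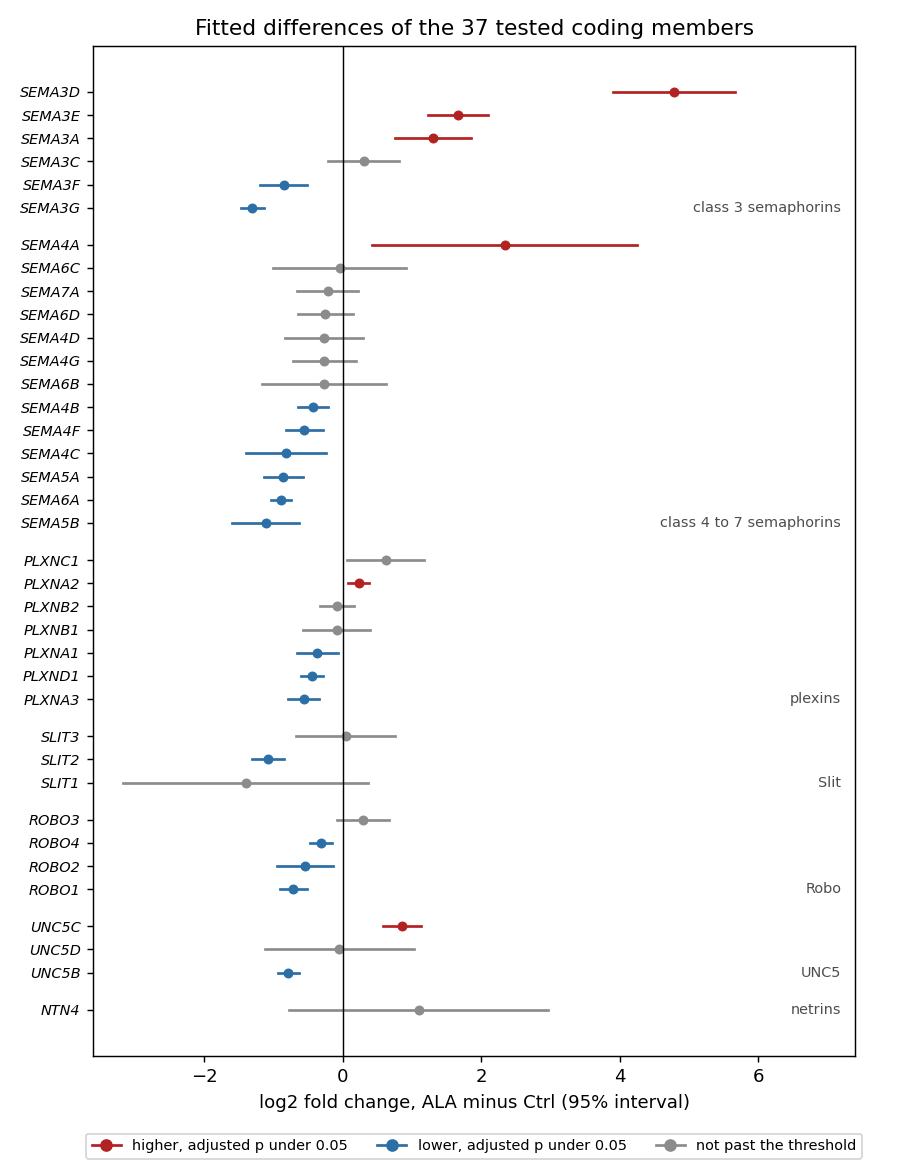
Fitted log2 fold change (ALA minus Ctrl, edgeR) of the 37 tested protein-coding guidance genes, grouped by family, with 95% intervals as lines. SEMA3D lies furthest to the right at 4.78. The other called rises are SEMA3A, SEMA3E, SEMA4A, PLXNA2 and UNC5C, and the 16 called falls lie between -0.31 and -1.30. SEMA4A was tested mainly through the ALA libraries, so its place among the rises is no result.

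The class 3 semaphorins, the secreted ligands, moved in opposite directions. SEMA3D, SEMA3E and SEMA3A were higher in ALA libraries and SEMA3G and SEMA3F lower. Of 7 class 3 genes 6 were tested, with 3 higher, 2 lower and SEMA3C not called. Among all tested genes 24.2% were called higher and 23.3% lower, and 6 genes are few to set beside those shares.

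SEMA3D, a neuropilin ligand known from vein and heart development, had 13.6, 17.7 and 13.4 CPM in ALA libraries and 0.861, 0.133 and 0.598 CPM in Ctrl libraries. All 3 Ctrl libraries were low, at 4 to 28 counts, and all 3 ALA libraries lay far above them. The filter on low counts was passed in 3 ALA libraries and 2 Ctrl libraries, and the fold below rests on a Ctrl mean of 0.531 CPM. The fit gave 27.6-fold higher (log2 fold change 4.78 ± 0.40 SE, adjusted p = 1.48e-05 by edgeR), the widest difference among the coding members. Over 16 other settings the log2 fold change of SEMA3D lay between 4.11 and 5.34. SEMA3E, which binds PLXND1 without a neuropilin and repels endothelial sprouts in the mouse, had 10.3, 14.7 and 10.9 CPM in ALA libraries, against 4.31, 3.23 and 3.76 CPM in Ctrl libraries. Every ALA library lay above every Ctrl library, a 3.17-fold difference (1.67 ± 0.20 on the log2 scale, adjusted p = 0.000119, edgeR). SEMA3A, the founding repellent that signals through NRP1, had 16.2, 16.0 and 16.5 CPM in ALA and 8.80, 3.76 and 7.15 CPM in Ctrl libraries. Its ALA values were close together and the Ctrl values spread more widely, with replicate 2 lowest, and the fit gave 2.47-fold higher (1.30 ± 0.25, adjusted p = 0.00194, edgeR).

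SEMA3G, an endothelial class 3 ligand of NRP2 found mainly in arteries, had 56.2, 50.6 and 57.7 CPM in ALA libraries and 136, 127 and 144 CPM in Ctrl libraries. The groups lay far apart, with a 2.47-fold fall (log2 fold change -1.30 ± 0.08 SE, adjusted p = 1.54e-06, edgeR). SEMA3F, another NRP2 ligand, had 5.38, 6.58 and 6.29 CPM in ALA and 11.4, 11.3 and 10.2 CPM in Ctrl libraries. It fell 1.80-fold with no overlap (-0.85 ± 0.15, adjusted p = 0.00140). SEMA3C, a ligand of both neuropilins needed for the outflow tract of the mouse heart, averaged 3.54 ± 0.388 CPM in ALA and 2.87 ± 0.301 CPM in Ctrl libraries (SD, n = 3 each) and was not called (log2 interval -0.21 to 0.81, edgeR adjusted p = 0.300). SEMA3B, at 0.127 to 0.299 CPM in ALA and 0.0665 to 0.185 CPM in Ctrl libraries, was below the filter.

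The make-up of the class changed with these differences. Per kilobase of exon, the class 3 genes summed to 17.8 ± 0.254 CPM per kb in ALA libraries and 31.0 ± 1.84 CPM per kb in Ctrl libraries (SD, n = 3 each), with no overlap. SEMA3G held 57.2% to 63.6% of that sum in ALA libraries and 86.1% to 88.1% in Ctrl libraries. SEMA3A, SEMA3C, SEMA3D and SEMA3E together held 31.3% ± 3.23 in ALA and 5.37% ± 0.898 in Ctrl libraries. SEMA3D alone took 10.4% ± 1.80 of the sum in ALA and 0.208% ± 0.143 in Ctrl libraries (SD, n = 3 each).

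**Figure D2:**
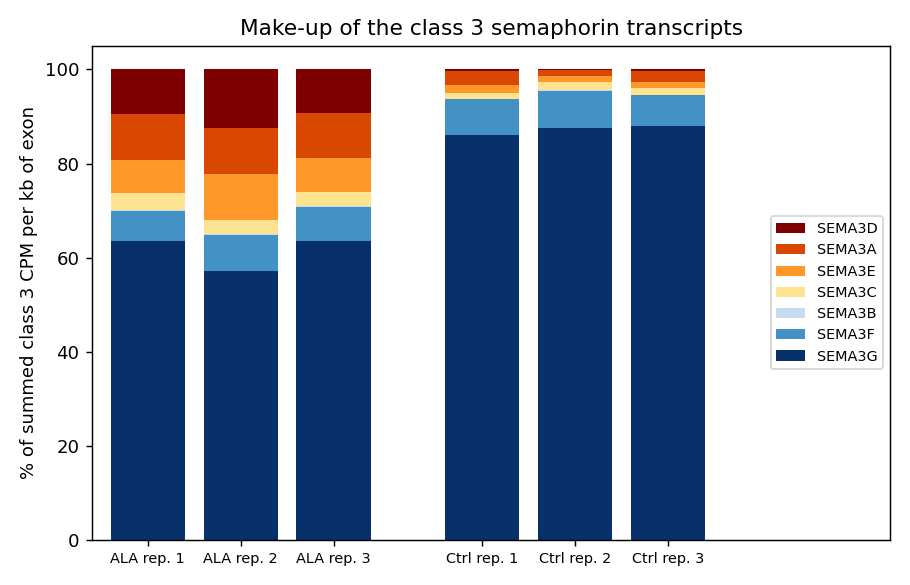
Stacked bars give the share of each class 3 semaphorin in the summed class 3 level per kilobase of exon, 1 bar per library. SEMA3G (dark blue) averages 61.4% in the 3 ALA bars and 87.2% in the 3 Ctrl bars, and SEMA3A, SEMA3C, SEMA3D and SEMA3E (yellow to dark red) take a larger share of the ALA bars than of the Ctrl bars.

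The rule did not use position, and the class 3 genes lie on 2 chromosomes. SEMA3C, SEMA3E, SEMA3A and SEMA3D lie on chromosome 7 in that order, all on the minus strand, and SEMA3F, SEMA3B and SEMA3G on chromosome 3 (GENCODE v29, GRCh38). SEMA3E, SEMA3A and SEMA3D are the protein-coding genes of the 1.82 Mb from 83363238 to 85186855, and all 3 rose, while SEMA3C, further off at 80742538 to 80922359, was not called. The nearest coding neighbours were PCLO, on the SEMA3E side, and GRM3, on the SEMA3D side. PCLO was lower in ALA libraries (7.67 CPM in ALA and 10.3 CPM in Ctrl, adjusted p = 0.0446, edgeR). GRM3 was called higher at low level (0.855 CPM in ALA and 0.167 CPM in Ctrl, adjusted p = 0.0370, edgeR). Its Ctrl mean lay under the filter's level of 0.315 CPM, so GRM3 was tested mainly through the ALA libraries and its call is no result.

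The sequence before the start of class 3 genes is shown for a pair that rose and a pair that fell. RefSeq start windows (GRCh38.p14) matched 37 of the 45 genes, and the 250 bases before the start farthest 5′ are given. Capitals mark matches, on either strand, to any of 7 short motifs. These were TGACNNNGC, the core read by the oxidative stress factor NRF2, and TGATGNAA for the amino acid response factor ATF4. For endothelial and blood factors they were CCGGAA for the ETS family, then AACAAT for the SOX family and AGATAA for the GATA family. The Notch effector RBPJ was searched with TGGGAA and basic helix-loop-helix factors with the E-box CACGTG.
SEMA3D, higher in ALA, chr7:85187057-85187306, minus strand: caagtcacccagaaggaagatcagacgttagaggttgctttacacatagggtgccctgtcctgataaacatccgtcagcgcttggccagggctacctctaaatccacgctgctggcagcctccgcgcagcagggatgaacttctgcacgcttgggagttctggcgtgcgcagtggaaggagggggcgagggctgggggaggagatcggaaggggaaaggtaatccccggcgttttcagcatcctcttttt
SEMA3E, higher in ALA, chr7:83649140-83649389, minus strand: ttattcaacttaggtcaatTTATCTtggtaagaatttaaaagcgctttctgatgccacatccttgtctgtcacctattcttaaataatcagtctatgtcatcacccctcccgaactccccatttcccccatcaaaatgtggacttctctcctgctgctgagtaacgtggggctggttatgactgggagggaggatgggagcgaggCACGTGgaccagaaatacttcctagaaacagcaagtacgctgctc
SEMA3G, lower in ALA, chr3:52445104-52445353, minus strand: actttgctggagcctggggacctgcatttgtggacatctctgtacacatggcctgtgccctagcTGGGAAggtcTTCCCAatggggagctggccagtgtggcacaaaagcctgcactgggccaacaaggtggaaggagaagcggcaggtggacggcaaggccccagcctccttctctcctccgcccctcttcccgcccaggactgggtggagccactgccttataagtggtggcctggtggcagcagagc
SEMA3F, lower in ALA, chr3:50154808-50155057, plus strand: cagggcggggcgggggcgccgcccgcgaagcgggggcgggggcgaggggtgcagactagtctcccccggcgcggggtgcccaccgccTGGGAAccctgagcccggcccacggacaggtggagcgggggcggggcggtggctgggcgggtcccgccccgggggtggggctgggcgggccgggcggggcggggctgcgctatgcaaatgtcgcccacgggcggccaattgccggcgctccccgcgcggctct
The SEMA3D window held none of these motifs and the SEMA3E window 1 GATA match and 1 E-box, a palindrome that reads alike on both strands. The SEMA3G window held the RBPJ letters once on each strand and the SEMA3F window once. Of all 35116 windows of this length 20.9% held TGGGAA, 9.17% AGATAA, 6.34% CACGTG and 10.9% TGACNNNGC, so such matches are common and none is shown to be a bound site. Bases G and C made up 57.6% of the SEMA3D window, 46.4% of the SEMA3E window, 62.0% of the SEMA3G window and 82.0% of the SEMA3F window.

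The membrane-bound semaphorins of classes 4 to 7 mostly fell or were not called. Of 13 tested, 1 was higher, 6 were lower and 6 were not called, beside 24.2% higher and 23.3% lower over all tested genes. The 1 higher was SEMA4A, which was tested mainly through the ALA libraries and whose call is no result. SEMA6A, a transmembrane ligand of PLXNA2 and PLXNA4 in the mouse nervous system, was the most abundant of the 13 per kilobase in both groups, at 7.98 ± 0.361 CPM per kb in ALA and 14.8 ± 0.648 CPM per kb in Ctrl libraries (SD, n = 3 each). Its levels were 86.3, 91.8 and 84.1 CPM in ALA libraries and 157, 170.1 and 159 CPM in Ctrl libraries. The lowest Ctrl library was well above the highest ALA library, and SEMA6A fell 1.85-fold (log2 fold change -0.89 ± 0.06 SE, adjusted p = 5.69e-06, edgeR). An antisense row, SEMA6A-AS1, which shares exon sequence with SEMA6A on the other strand, was also lower, at 0.129 ± 0.0530 CPM in ALA and 1.72 ± 0.627 CPM in Ctrl libraries (adjusted p = 0.000459), and 0.030 of the SEMA6A exons overlap genes of that strand. SEMA6D, a relative that signals through PLXNA1, had 29.4, 33.1 and 35.7 CPM in ALA and 45.2, 26.3 and 45.4 CPM in Ctrl libraries. Ctrl replicate 2 was the lowest of all 6, and SEMA6D was not called (log2 interval -0.65 to 0.15, adjusted p = 0.271) except without that library (-0.46, 0.000999), in the 4 libraries of even counts (-0.46, 0.00767) and with limma voom (-0.38, 0.0215).

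SEMA5A and SEMA5B, which carry thrombospondin repeats beside the semaphorin domain, both fell. SEMA5A had 9.81, 10.3 and 10.2 CPM in ALA libraries and 20.2, 15.9 and 18.8 CPM in Ctrl libraries, a 1.81-fold fall (-0.85 ± 0.12, adjusted p = 0.000427, edgeR). SEMA5B had 7.62, 5.70 and 8.61 CPM in ALA libraries and 19.7, 11.2 and 16.5 CPM in Ctrl libraries, a 2.16-fold fall (-1.11 ± 0.22, adjusted p = 0.00239). Neither gene's groups overlapped.

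Of the class 4 genes SEMA4F and SEMA4B fell at moderate level. SEMA4F, a transmembrane semaphorin of the nervous system, had 26.6, 19.2 and 26.9 CPM in ALA and 35.2, 34.7 and 36.6 CPM in Ctrl libraries (1.46-fold lower, -0.55 ± 0.12, adjusted p = 0.00448, edgeR). SEMA4B had 19.0, 21.0 and 17.6 CPM in ALA and 25.6, 25.7 and 25.9 CPM in Ctrl libraries (1.34-fold lower, -0.43 ± 0.10, adjusted p = 0.00470). Both sets of Ctrl values lay within a narrow range above all ALA values. SEMA4C, a PLXNB2 ligand, averaged 1.91 ± 0.361 CPM in ALA and 3.38 ± 0.126 CPM in Ctrl libraries (adjusted p = 0.0252) and lost its call in 5 of 16 settings. Those were the 4 libraries of even counts alone (0.124), and leaving out ALA replicate 1 (0.0515), ALA replicate 3 (0.101), Ctrl replicate 1 (0.0521) or Ctrl replicate 3 (0.0755).

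SEMA4A, which binds PLXND1 and is known from immune cells, was called higher at low level, with counts of 38 to 52 in ALA libraries and 0 to 19 in Ctrl libraries. It averaged 1.29 ± 0.364 CPM in ALA and 0.252 ± 0.335 CPM in Ctrl libraries (5.07-fold higher, adjusted p = 0.0457, edgeR). The filter on low counts was passed in 3 ALA libraries and 1 Ctrl library, so SEMA4A was tested mainly through the ALA libraries. Its call and its place among the higher genes are no result. The SEMA4A call was lost without any 1 ALA library (0.0755 to 0.113), without Ctrl replicate 1 (0.113) and with the replicate number as a block (0.0715). Its log2 fold change of 2.34 moved to 4.27 without Ctrl replicate 3, to 1.77 without Ctrl replicate 2 and to 3.35 with the even-count libraries alone, so the size of the SEMA4A difference rests on single Ctrl libraries. SEMA4D (CD100, a PLXNB1 ligand), SEMA4G, SEMA6B, SEMA6C and the membrane-anchored SEMA7A were not called, with adjusted p from 0.312 to 0.950 and group means of 1.03 to 6.78 CPM in ALA and 1.06 to 8.14 CPM in Ctrl libraries. Genes on the other strand cover 0.274 of the exons of SEMA4G, and strand use in counting is not given in the sources used here.

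Plexins, the semaphorin receptors, included the 2 transcripts that, per kilobase, ranked next after UNC5B in both groups. Of 9 plexins 7 were tested, with 1 higher, 3 lower and 3 not called. That is 57.1% called, near the 47.4% over all tested genes, so the count is no result about plexins. PLXNA2, a receptor for SEMA6A and, with neuropilins, for class 3 semaphorins, had 527, 481 and 517 CPM in ALA libraries and 466, 392 and 441 CPM in Ctrl libraries. The groups were close without overlapping, and PLXNA2 was 1.17-fold higher (0.23 ± 0.07, adjusted p = 0.0201, edgeR), a call lost when ALA replicate 1 (0.0774) or 3 (0.0754) was left out and with the even-count libraries alone (0.109). PLXND1, the endothelial plexin that receives SEMA3E, had 346, 315 and 319 CPM in ALA and 488, 419 and 424 CPM in Ctrl libraries. It was 1.36-fold lower with a clear gap between the groups (-0.44 ± 0.07, adjusted p = 0.000704).

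The order of the 2 leading plexins differed between groups. Per kilobase of exon, PLXNA2 stood at 36.9 ± 1.78 CPM per kb in ALA and 31.4 ± 2.72 CPM per kb in Ctrl libraries, and PLXND1 at 33.5 ± 1.71 CPM per kb in ALA and 45.6 ± 3.97 CPM per kb in Ctrl libraries (SD, n = 3 each). PLXNA2 came to 108% to 115% of PLXND1 in the ALA libraries and to 66.0% to 73.6% in the Ctrl libraries.

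PLXNA3, a neuropilin partner on the X chromosome, fell 1.48-fold, with 36.8, 34.5 and 36.2 CPM in ALA libraries and 59.3, 44.7 and 54.6 CPM in Ctrl libraries (-0.56 ± 0.10, adjusted p = 0.00141, edgeR). PLXNA1, its close relative, had 66.7, 48.3 and 63.6 CPM in ALA and 89.1, 65.1 and 75.7 CPM in Ctrl libraries. These groups overlapped, and the PLXNA1 call (1.29-fold lower, adjusted p = 0.0481) was lost in 6 of 16 settings, among them without ALA replicate 2 (0.179) or 3 (0.0711), without Ctrl replicate 1 (0.179) or 3 (0.0960), and with the trend with GC content and gene length removed (0.0581).

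The class B plexins, receptors for class 4 semaphorins, did not pass. PLXNB2 had 82.2, 74.1 and 82.3 CPM in ALA libraries and 100.2, 72.0 and 80.3 CPM in Ctrl libraries (log2 interval -0.33 to 0.16, adjusted p = 0.568, edgeR). PLXNB1 had 25.0, 18.4 and 22.6 CPM in ALA libraries and 32.1, 15.9 and 21.8 CPM in Ctrl libraries (log2 interval -0.56 to 0.40, adjusted p = 0.776). In both genes the Ctrl libraries spanned the ALA values, with Ctrl replicate 1 highest and Ctrl replicate 2 lowest, and in the 4 libraries of even counts both were called lower (PLXNB2 -0.32, 0.0123, and PLXNB1 -0.54, 0.0137). PLXNC1, the SEMA7A receptor, had 6.33, 7.53 and 6.58 CPM in ALA and 5.97, 2.93 and 4.36 CPM in Ctrl libraries and missed the threshold (1.54-fold higher, adjusted p = 0.0644), but was called with DESeq2 (0.0413), with limma voom (0.0290) and without Ctrl replicate 1 (0.0140). PLXNA4, at 0 to 6 counts in ALA libraries and 0 to 26 in Ctrl libraries, and PLXNB3, at 0 to 8 in ALA and 0 to 20 in Ctrl libraries, were below the filter. For both Ctrl replicate 2 had 0 counts.

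**Figure D3:**
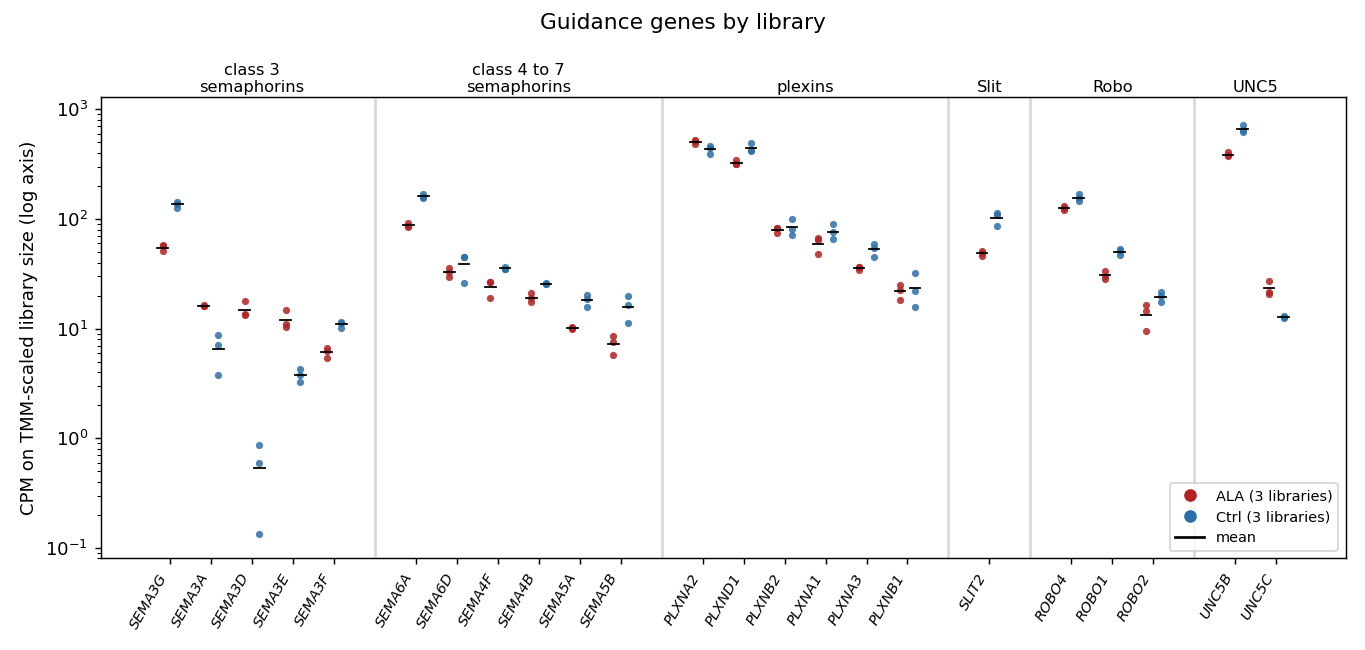
CPM in each library (dots, log axis) and group mean (bars) of the 23 guidance genes with a call and at least 5 CPM in the higher group or with at least 20 CPM and no call. ALA libraries are red and to the left, Ctrl libraries blue and to the right. SEMA3D shows the widest gap, 13.4 to 17.7 CPM in ALA against 0.133 to 0.861 CPM in Ctrl libraries.

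SLIT2 and 3 of the 4 Robo transcripts were lower in ALA libraries. SLIT2, the main Slit ligand here, had 49.4, 46.3 and 50.7 CPM in ALA libraries and 113, 85.8 and 109 CPM in Ctrl libraries. The groups were well apart, and SLIT2 fell 2.11-fold (log2 fold change -1.07 ± 0.10 SE, adjusted p = 3.33e-05, edgeR). SLIT2-IT1, a sense transcript within a SLIT2 intron (chromosome 4, 20392189 to 20394856), had no count in any ALA library and 44, 54 and 34 counts in Ctrl replicates 1 to 3. A count of 0 allows up to 0.0530 CPM over the ALA libraries (3 counts over the group, with even counts halved, counting error only). Pooled in the same way, the Ctrl libraries held 1.44 CPM of SLIT2-IT1. It passed the filter through the untreated libraries alone, so its call is no result. Reads of unspliced SLIT2 RNA lie on the same strand and cannot be told apart from SLIT2-IT1.

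SLIT3 averaged 9.13 ± 2.10 CPM in ALA and 8.84 ± 3.97 CPM in Ctrl libraries (SD, n = 3 each) and was not called (log2 interval -0.67 to 0.76, edgeR adjusted p = 0.923), and its sign changed with settings. SLIT1 was at or under 1.20 CPM in all libraries, with 0.697, 0 and 0.580 CPM in ALA and 1.11, 1.16 and 1.20 CPM in Ctrl libraries. It did not pass although the groups did not overlap (adjusted p = 0.172).

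Of the 4 Robo receptors 3 fell and none rose, beside 23.3% called lower and 24.2% higher over all tested genes. A family of 4 is too small to compare with those shares. ROBO4, the Robo of endothelium, had 132, 121 and 126 CPM in ALA libraries and 169, 154 and 147 CPM in Ctrl libraries, a 1.24-fold fall (-0.31 ± 0.07, adjusted p = 0.00420, edgeR). Genes on the other strand cover 0.169 of its exons. ROBO1, a Slit receptor of many tissues, had 28.5, 30.4 and 33.4 CPM in ALA and 46.6, 51.3 and 53.4 CPM in Ctrl libraries, a 1.64-fold fall (-0.71 ± 0.09, adjusted p = 0.000141). ROBO2 had 14.4, 9.49 and 16.2 CPM in ALA and 17.4, 21.4 and 19.9 CPM in Ctrl libraries. The ROBO2 groups nearly touched, and the call (1.46-fold lower, adjusted p = 0.0312) was lost without ALA replicate 1 (0.0609) or 2 (0.0702), without Ctrl replicate 3 (0.0797) and in the 4 libraries of even counts (0.235). ROBO3, which in mammals does not bind Slits with high affinity, averaged 9.44 ± 0.484 CPM in ALA and 7.70 ± 1.46 CPM in Ctrl libraries and was not called (adjusted p = 0.174).

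Netrin transcripts were scarce, and of the 4 UNC5 receptors UNC5B was abundant, UNC5C moderate, UNC5D low and UNC5A at 0 in every library. NTN4, a netrin of basement membranes, was the single netrin past the filter, with 18 to 30 counts in ALA libraries and 0 to 16 in Ctrl libraries (edgeR adjusted p = 0.304). NTN1 and NTN5 had 0 to 2 counts in ALA libraries and 0 in Ctrl libraries, and NTN3 had none anywhere, which allows up to 0.0530 CPM over the ALA and 0.0393 CPM over the Ctrl libraries. UNC5B, the netrin receptor of arterial and sprouting endothelium, was the most abundant of the 45 genes per kilobase in both groups, at 56.4 ± 2.53 CPM per kb in ALA and 96.9 ± 8.17 CPM per kb in Ctrl libraries (SD, n = 3 each).

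UNC5B had 405, 372 and 379 CPM in ALA libraries and 726, 618 and 644 CPM in Ctrl libraries. No library of either group came near the other group, and UNC5B fell 1.72-fold (-0.78 ± 0.07, adjusted p = 1.96e-05, edgeR). The antisense row UNC5B-AS1 fell as well, 3.80-fold, with 6.22 ± 0.896 CPM in ALA and 23.7 ± 1.45 CPM in Ctrl libraries (adjusted p = 4.67e-06), and it shares no exon sequence with UNC5B in GENCODE v29. UNC5C, a relative of UNC5B, moved the other way. It had 20.9, 27.3 and 21.5 CPM in ALA libraries and 12.6, 12.8 and 13.1 CPM in Ctrl libraries, 1.81-fold higher without overlap (0.86 ± 0.12, adjusted p = 0.000391). Per kilobase UNC5C came to 3.30% to 4.70% of UNC5B in ALA libraries and 1.11% to 1.32% in Ctrl libraries. UNC5D, at 20 to 28 counts in ALA and 16 to 30 in Ctrl libraries, was not called (adjusted p = 0.948).

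Co-receptors and signalling partners of these families were followed with a list of 58 genes chosen from knowledge of the pathways. Of 53 tested, 12 were higher, 18 lower and 23 not called, with a median log2 fold change of -0.03 beside -0.01 over all tested genes. Over all tested genes 24.2% were called higher, 23.3% lower and 47.4% in either direction. The count of partners called higher is near that share and is no result about the partners. Of the 12 higher, CD72 (0.435 to 0.633 CPM in ALA and 0 to 0.0997 CPM in Ctrl libraries) and DPYSL5 (0.338 to 0.760 CPM in ALA and 0 to 0.185 CPM in Ctrl libraries) passed the filter on low counts through the ALA libraries alone, so their place among the higher genes is no result. Without ALA replicate 2 the count lower was 11. The neuropilins split: NRP2, the SEMA3F and SEMA3G co-receptor, averaged 970 ± 20.6 CPM in ALA and 697 ± 7.32 CPM in Ctrl libraries (1.39-fold higher, adjusted p = 3.38e-05, edgeR), while NRP1, the SEMA3A co-receptor, averaged 771 ± 20.1 CPM in ALA and 1044 ± 43.2 CPM in Ctrl libraries (1.36-fold lower, adjusted p = 0.000103). NRP1 ranged from 758 to 794 CPM in ALA and from 994 to 1070 CPM in Ctrl libraries, and NRP2 from 958 to 994 CPM in ALA and from 691 to 705 CPM in Ctrl libraries, so neither pair of groups overlapped.

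Ligands and receptors that meet the UNC5 and netrin receptors also differed. FLRT2 and FLRT3, membrane proteins that bind UNC5 receptors, averaged 82.8 ± 3.90 and 33.8 ± 3.12 CPM in ALA and 37.7 ± 3.98 and 15.2 ± 1.83 CPM in Ctrl libraries (2.20-fold and 2.22-fold higher, the larger adjusted p = 4.19e-05, edgeR). NEO1, neogenin, a receptor for netrins and repulsive guidance molecules, averaged 17.3 ± 1.62 CPM in ALA and 33.8 ± 3.77 CPM in Ctrl libraries (1.95-fold lower, adjusted p = 9.65e-05). Inside the cell, MICAL2, of a family of actin-oxidising enzymes downstream of plexins, averaged 183 ± 3.28 CPM in ALA and 116 ± 4.41 CPM in Ctrl libraries (1.58-fold higher, adjusted p = 2.06e-05). RRAS, a GTPase that plexins switch off, averaged 44.3 ± 1.77 CPM in ALA and 70.5 ± 4.54 CPM in Ctrl libraries (1.59-fold lower, adjusted p = 7.64e-05). GIPC1, an adaptor of neuropilin and plexin tails, averaged 49.5 ± 1.78 CPM in ALA and 69.4 ± 3.71 CPM in Ctrl libraries (1.40-fold lower, adjusted p = 0.000365).

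**Figure D4:**
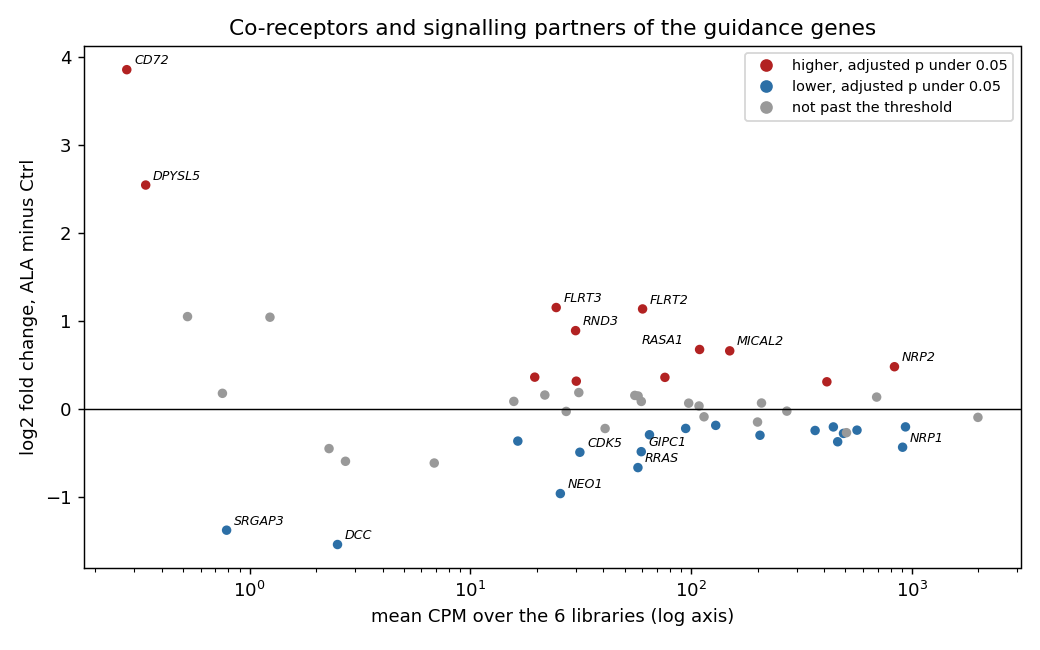
Fitted log2 fold change (ALA minus Ctrl) of the 53 tested co-receptors, other ligands and intracellular partners against their mean CPM over the 6 libraries (log axis). FLRT2, FLRT3, NRP2 and MICAL2 lie above 0 and NEO1, NRP1, RRAS and GIPC1 below it, with 12 genes called higher (red) and 18 lower (blue).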

How the data were processed

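The libraries were amplified polyA cDNA, 3 ALA and 3 Ctrl. The deposited table holds raw counts for each gene symbol. The submitters' processing notes name HISAT2, featureCounts, DESeq2 and hg38, without roles. Tool versions, strand use and treatment of multi-mapped reads are not given in the sources used here. No molecular barcodes are mentioned, so floors cover counting error only.

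Genes were filtered by filterByExpr, scaled by TMM and tested with edgeR 4.0.16 in R 4.3.3 (quasi-likelihood F test, group as the sole term), with Benjamini-Hochberg adjustment over all 13780 tested genes and checks on simulated data. Standard errors are the absolute log2 fold change over the square root of F. Levels per kilobase use union exon length from GENCODE v29, which held 29221 symbols (99.27%). Each library's CPM is given for members called with at least 5 CPM in the higher group, or not called with at least 20 CPM on average (PLXNC1 and SLIT1 were added after their values were seen), and 4 partners per direction are named by lowest p. PCLO, GRM3, CDH1, FOXA2, SEMA6A-AS1 and UNC5B-AS1 were chosen after their values were seen. Members and lists were chosen with earlier results of these data known. Alternatives used DESeq2 1.42.0, limma 3.58.1, and mgcv 1.9.3 for the trend with GC content and length.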

Additional observations from a re-analysis of the deposited data

How the results depend on the processing

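Direction held under 16 settings for the 23 called members, save that SEMA4A was tested in 15. SEMA4A dropped out where at least 1 CPM was required in all libraries of a group. Of the 23, 18 kept their call in all settings (4 higher, 14 lower), while PLXNA1, PLXNA2, ROBO2, SEMA4A and SEMA4C lost theirs in some. The 14 include SLIT2-IT1, which passed the filter through the untreated libraries alone. Members that were not called and changed sign are given here. With limma voom the log2 fold change of SLIT3 was -0.28 and that of UNC5D 0.033. In the 4 libraries of even counts SEMA4D was at 0.089, SEMA6C at 0.076, SLIT3 at -0.30 and UNC5D at 0.48. With the trend with GC content and length removed PLXNB1 was at 0.053, PLXNB2 at 0.080, SEMA6B at 0.020 and SEMA6C at 0.15. With 1 library left out at a time, PLXNB1 ranged from -0.29 to 0.23, PLXNB2 from -0.18 to 0.070, SEMA6C from -0.29 to 0.29, SLIT3 from -0.29 to 0.26 and UNC5D from -0.25 to 0.29. Partner genes called lower numbered 11 to 19 in those fits, with 11 without ALA replicate 2. The cause of these changes was not tested.

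Replicates of the same number correlated at 0.051 to 0.074 in their deviations from the group means, so the numbers were not taken as pairs, although every library correlated best with its own number. With the replicate block 5 members were called higher and 17 lower, and 6557 of all tested genes were called. Even counts in 4 libraries limit what a low count can show, and leaving out Ctrl replicate 1 leaves even counts in ALA libraries alone. NTN1, NTN3, NTN5, SEMA3B, PLXNA4, PLXNB3 and UNC5A were below the filter and were not tested.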
